A study of Mus musculus with 4 samples.

Results

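The array used for B16-F10 cells, a mouse melanoma line, carries probes that are named by a genomic interval and a strand in place of a gene. These are the design's probes for long intergenic non-coding RNAs. Members were all non-control probes whose name in the scanner files was an interval of the mouse build mm9 followed by F or R for the strand. The rule used no measured value, and it gave 4449 of 56605 probes (7.86%). They covered 4061 stranded intervals, or 3229 intervals without regard to strand, on 20 chromosomes. Because many intervals overlapped, they fell into 2149 separate loci, of which 660 held more than 1 interval. Interval length ran from 62 to 538251 bp with a median of 7207 bp. The files pair the intervals with no gene symbol and give no probe sequence or position within an interval, so an interval is named here by its mm9 coordinates and strand alone. Whether these intervals are intergenic in mm9, and what lies beside them, was not analysed here.

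The cells grew in medium with 10% serum for 24 h, either without addition (control, 2 arrays) or with recombinant Cdh1 at 100 ng/mL (2 arrays). The name stands for cadherin 1 (E-cadherin), through which epithelial cells adhere to each other. The source species and the form of the protein are not given in the labels, and all groups are cultures of the same line. Per the design text there were 2 independent sets, each of 1 control and 1 Cdh1 culture, so that 2 comparisons arise: Cdh1 against control, and set 2 against set 1. All 4 arrays lay on 1 slide and were read in 1 scan. Signal below means the log2 of the processed Cy3 intensity relative to the 75th percentile of the array's non-control spots, so that 0 is that percentile, which lay between 569 and 623 intensity units on the 4 arrays. With 2 arrays in a group the precision is limited, and an exact permutation test of 2 against 2 cannot give a two-sided p below 0.333.

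Long intergenic non-coding RNAs are transcripts made from the stretches between protein-coding genes that do not encode a known protein. Many are spliced and polyadenylated like messenger RNAs, are present at few copies in a cell, and are restricted to a few tissues. Known members act as scaffolds for chromatin-modifying complexes, as decoys for proteins or microRNAs, or through the act of transcription on a neighbouring gene, and for most no role is known.

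The arrays carried the profile of the labelled cell type. All 7 melanocyte markers looked for (Tyr, Tyrp1, Dct, Pmel, Mlana, Mitf and Sox10) were well above background on all 4 arrays, with mean signals from 2.86 to 8.81. Of the other lists, 1 of 4 epithelial markers, 3 of 4 fibroblast markers, 1 of 4 leukocyte markers and 1 of 3 endothelial markers were well above background on all 4. No interval spot was saturated. The last 24 rows of spots, which showed a wider spread between arrays, held 307 interval probes (6.90%).

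Interval probes were detected less often than probes for messenger RNAs and more often than probes for RefSeq non-coding RNAs. On the set 1 arrays 53.1% (control) and 55.0% (Cdh1) of interval probes were well above background, and on the set 2 arrays 55.5% (control) and 51.4% (Cdh1). Among the 29937 probes for RefSeq mRNAs it was 67.8%, 68.5%, 68.5% and 66.9% in the same order. The interval share was lower on all 4 arrays, by 14.2 ± 1.14 percentage points (SD, n = 4 arrays; exact two-sided sign-flip permutation test, p = 0.125, the smallest that 4 arrays allow). Against the 2556 probes for RefSeq non-coding RNAs, whose shares ran from 38.5% to 40.1%, it was higher on all 4 arrays by 14.5 ± 1.15 points (SD, n = 4; exact sign-flip permutation test, p = 0.125). In all, 2155 interval probes (48.4%) were well above background on all 4 arrays and 1772 (39.8%) on none, against 65.1% and 28.7% of mRNA probes. By interval, 1723 of 3229 had a probe detected on all 4 arrays and 1123 had none on any array.

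Detected intervals were mostly dim. Over the 2155 probes detected on all 4 arrays, the mean signal had a median of -2.97, with the 5th and the 95th percentile at -5.05 and 2.48 and a maximum of 7.61. Only 332 of them (15.4%) lay above 0, compared with 50.3% of the 19499 mRNA probes detected on all 4, and 27 exceeded 5. Array by array, the median interval signal minus the median mRNA signal was -2.98 ± 0.04 (SD, n = 4 arrays; exact sign-flip permutation test, p = 0.125). Minus the median of the RefSeq non-coding probes it was -0.55 ± 0.03 (SD, n = 4). Signals of different probes depend on the probe's sequence too, so these are differences between probe signals and not between amounts of transcript.

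**Figure D1:**
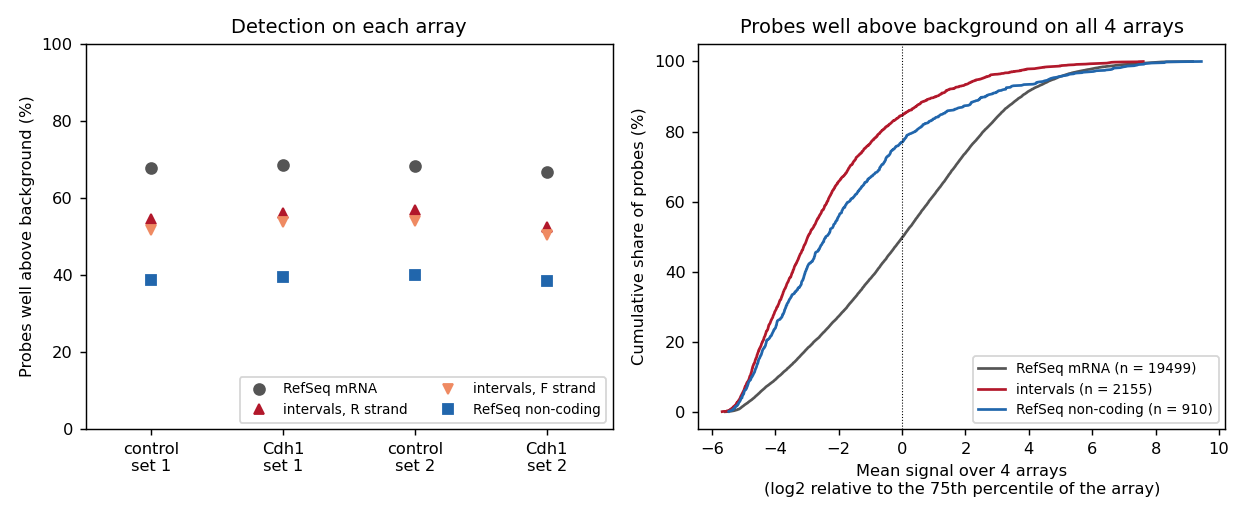
Left, share of probes well above background (%) on each of the 4 arrays for RefSeq mRNA probes, interval probes of each strand and RefSeq non-coding probes, 1 point for each class and array. Right, cumulative share of probes (%) against the mean signal over the 4 arrays (log2) for the probes detected on all 4. The interval points lie between those of the other classes on every array, and the interval curve passes 0 with 15.4% of its probes still above.

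The 12 brightest intervals all lay above 4.81, the 95th percentile of the detected mRNA probes, and differed little between arrays. The brightest, chr11:22681800-22707775 on the R strand (25976 bp), read 7.64 (control) and 7.59 (Cdh1) in set 1, and 7.62 (control) and 7.60 (Cdh1) in set 2. The F probe of the same interval was detected on all 4 arrays at a mean of 1.38, and that of the overlapping chr11:22659730-22699427 on none. Next came chr7:108209996-108216032 on the R strand, at 7.5, 7.45, 7.43 and 7.46 in the same order of arrays. The third, chr17:48068261-48087905 on the F strand, read 7.59, 7.49, 7.34 and 7.33 and was printed as 10 spots. In the first, both control arrays read slightly above both Cdh1 arrays, and in the other two the groups overlapped.

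The other intervals among the 12 brightest had mean signals from 6.07 to 6.94. They were chr14:78924115-78938125 F, chr1:193875525-193978800 R, chr4:33364774-33364898 R, chr6:116123643-116124550 F, chr6:83368261-83407280 F, chr17:17481706-17482457 R, chr12:73838608-73862621 R, chr6:116092274-116144199 F and chr2:167085700-167117795 R. The interval on chromosome 4 is only 125 bp long and the one on chromosome 1 is 103276 bp, so bright probes came from short and long intervals alike. The 908 bp interval on chromosome 6 lies inside the 51926 bp one, so this pair covers the same stretch of the genome. On chromosome 12 both strands were bright: the R probe averaged 6.46, 1 F probe averaged 5.93 on all 4 arrays, and a second F probe averaged -5.67 and was above background on 1 array. None of the 12 passed the test between the sets (limma adjusted p from 0.093 to 0.92).

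Short intervals were detected less often than longer ones. In the lowest quartile of length (62 to 1738 bp) 39.7% of 1113 probes were well above background on all 4 arrays, and in the upper quartiles 51.6%, 49.8% and 52.6%. The median signal of the detected probes was -3.25, -3.06, -2.85 and -2.71 from the shortest to the longest quartile. Across the 2155 detected probes, log2 length and signal had a Pearson r of 0.11, a description over probes that share arrays and, in part, loci. By chromosome the share detected on all 4 arrays ran from 37.8% of 185 probes on chromosome 18 and 40.8% of 174 on X to 61.8% of 249 on chromosome 17. The highest median signal, -2.24, was that of chromosome 6, where 55.9% of 254 probes were detected.

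The strands were almost equally represented, with 2227 F and 2222 R probes. The share above background was higher for R than for F on all 4 arrays, by 2.53 ± 0.37 percentage points (SD, n = 4; exact sign-flip permutation test, p = 0.125, the smallest possible). Median signals of the strands differed by 0.01 ± 0.02, with R higher on 3 of 4 arrays (exact sign-flip permutation test, p = 0.375).

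For 832 intervals both strands carried a probe, which shows how far the strands of an interval differ in signal. Taking the brightest probe of each strand, both strands were detected on all 4 arrays in 291 intervals, F alone in 151, R alone in 204 and neither in 186. In 259 of the 355 intervals with 1 strand detected on all 4, the other strand was above background on no array, and the median distance between the strands was 3.93, which rests on readings at background for the dim strand. Where both were detected, the F and R signals had a Pearson r of 0.04 over the 291 intervals and a median distance of 2.11. In 107 of these (36.8%) the strands lay more than 3 apart, and in 58 more than 5 apart. F was the brighter in 165 of the 291. The F and R probes of an interval have different sequences and may lie in different places of it, so a distance mixes strand with probe.

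In the 5 intervals with the widest distance R was the brighter, but in 4 of them F was at background, so that neither the size nor the order of these distances is known. In chr1:193875525-193978800 the F probe read -7.94, -8.09, -7.46 and -7.79 (control and Cdh1 of set 1, then of set 2), and was well above background on no array. The brightest R probe read 6.83, 6.69, 6.65 and 6.63. A second R probe of that interval averaged -2.60, and an F probe of the 333 bp interval chr1:193923014-193923346 inside it averaged -1.69, so probes of this locus differed within a strand too. In chr11:97457180-97487074 the F probe read -7.49, -7.46, -7.03 and -7.02 and the R probe 4.75, 4.69, 4.67 and 4.96. For chr13:108548345-108679004 the means were -5.58 for F, above background on 3 arrays, and 5.42 for R. The remaining examples were chr6:145936225-145965575 (-7.49 for F, 3.38 for R) and chr1:52507332-52514490 (-7.94 for F, 2.78 for R), in both of which F was above background on no array.

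**Figure D2:**
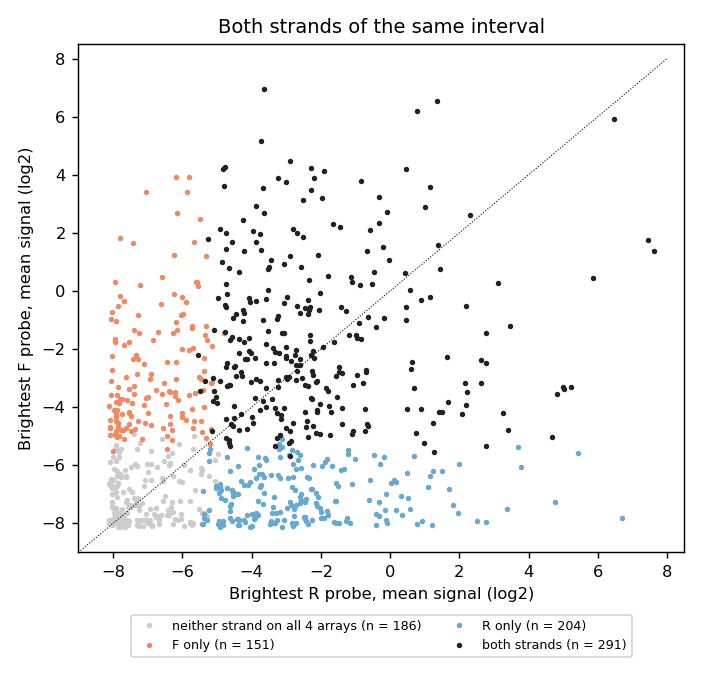
Mean signal over the 4 arrays (log2) of the brightest F probe against that of the brightest R probe for the 832 intervals probed on both strands, 1 point per interval, coloured by the strand detected on all 4 arrays; the dotted line marks equal signals. Points with both strands detected (n = 291) show no common slope (Pearson r 0.04).

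Probes placed on the same strand of the same interval shared more. Among detected probes there were 156 such pairs in 124 intervals, counted without regard to strand. Their signals had a Pearson r of 0.54 over pairs and a median distance of 1.54, against 0.05 and 2.09 for the 347 pairs of detected probes on opposite strands of an interval. Of 316 stranded intervals with more than 1 probe (at most 6), 111 had 2 and 15 had 3 probes detected on all 4 arrays. The 3 probes of chr6:116123643-116124550 F had mean signals of 6.57, 6.54 and 6.41, and those of chr5:96591892-96606467 F of 3.87, 3.02 and 2.54. The 3 probes of chr6:11996975-12037300 F had 4.25, 3.92 and 3.12. Others were spread widely: 5.02, 1.94 and 0.06 in chr12:55844075-55898175 R, and 3.23, 0.52 and -2.69 in chr17:46972160-46997919 F.

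Recombinant Cdh1 gave no call among the intervals. In limma's test with Benjamini-Hochberg adjustment over all tested probes, 0 of 2331 tested interval probes passed an adjusted p of 0.05, as did 0 of all 32571 tested probes (background 0%), and the lowest adjusted p of an interval probe was 1.0. An unadjusted p under 0.05 was found for 70 interval probes (3.0%), 36 higher and 34 lower with Cdh1, beside a background of 1.72% over all probes and 0.992% of mRNA probes. With the set as a block, which compares each Cdh1 culture with the control of its own set, 0 of 2330 interval probes passed. There 265 had an unadjusted p under 0.05, but the share over all probes in that fit was not taken, so 265 has no background here. Without the block such probes were mostly dim. In the dimmest quartile of signal 5.90% of 1000 interval probes and 6.13% of 3098 mRNA probes had an unadjusted p under 0.05. In the next quartile the shares were 1.16% of 774 and 0.210% of 4287. Of the 70, 10 lay in the last 24 rows.

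The Cdh1 differences were small in both sets, and those of set 1 showed little relation to those of set 2. Over probes detected on all 4 arrays, the SD of the log2 difference was 0.27 in set 1 and in set 2 for intervals, against 0.18 and 0.17 for mRNA probes. For RefSeq non-coding probes it was 0.25 and 0.23. In the dimmest quartile of signal intervals had 0.35 and 0.36 and mRNA probes 0.35 and 0.34. In the next quartile it was 0.26 and 0.21 against 0.20 and 0.18. The difference had the same direction in both sets in 1117 of 2154 interval probes with a value on every array, 638 higher and 479 lower with Cdh1. That is 51.9%, close to the 52.5% over all probes and 50.3% of mRNA probes. The split by direction was not set against other probes. Across the 2154 interval probes the differences of the sets had a Pearson r of 0.08, which was 0.02 in rows 1 to 360 and 0.32 in the last 24 rows. A difference of at least 2-fold was seen in 10 interval probes in set 1 (background 0.337%) and in 13 in set 2 (background 0.385%). It was at least 2-fold in the same direction in both sets in 1 of 2155 (background 0.0225%).

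**Figure D3:**
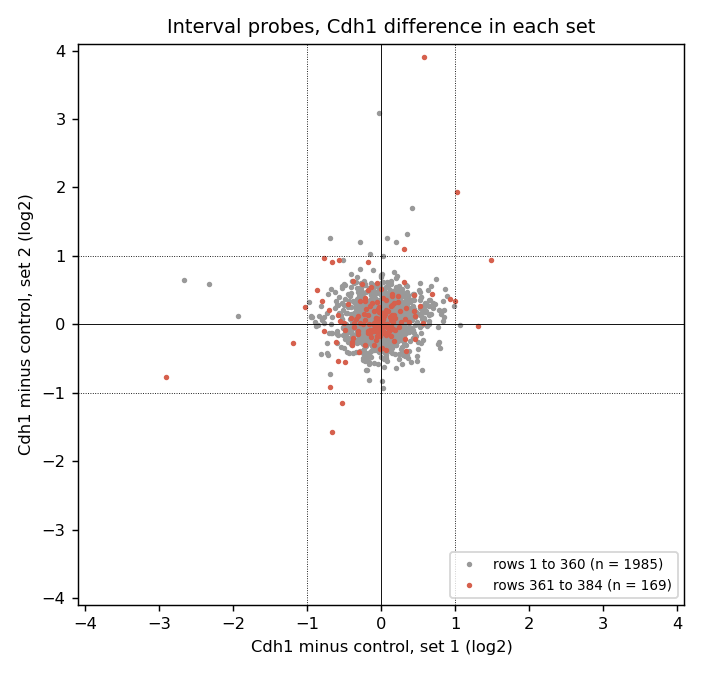
Cdh1 minus control (log2) in set 2 against the same in set 1 for 2154 interval probes detected on all 4 arrays, 1 point per probe, with the last 24 rows of spots in red; dotted lines mark 2-fold. A single point lies beyond 2-fold upwards in both sets, and none lies beyond 2-fold downwards in both.

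That 1 probe was chr14:99735346-99735699 R. It read -3.67 (control) and -2.65 (Cdh1) in set 1, and -4.36 (control) and -2.43 (Cdh1) in set 2. Both Cdh1 arrays lay above both control arrays, and the mean difference was 1.48 ± 0.28 (SE; limma adjusted p = 1.0). The largest mean rise was that of chr15:32167516-32174427 F, at -5.33, -4.75, -5.26 and -1.36 in the same order, where the Cdh1 array of set 2 alone stood out. An F probe of the interval chr15:32167516-32174417, which ends 10 bp earlier, differed by only -0.06 in set 1 and 0.47 in set 2. The other rises were 1.21 in chr18:84735774-84760824 F, 1.06 in chr2:176211325-176231650 F and 0.83 in chr13:28490070-28492645 R, each with an adjusted p of 1.0. These means rest on single arrays: leaving out 1 array gave 0.54 to 3.93 for chr15:32167516-32174427 F, and 0.66 to 1.77, 0.52 to 1.59 and 0.46 to 1.21 for the 3 others.

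The largest mean fall with Cdh1 was in chr2:174428737-174439062 R. It read -2.74 (control) and -5.65 (Cdh1) in set 1, and -4.15 (control) and -4.92 (Cdh1) in set 2, so that the sets differed in size and the groups did not overlap. In chr17:8025086-8026227 R the values were -2.17, -2.86, -2.18 and -3.09, a mean difference of -0.80 ± 0.13 (SE; limma adjusted p = 1.0). The remaining falls were -1.12 in chr13:99890903-99892577 R, -0.84 in chr2:71576218-71603818 R and -0.74 in chr6:100162756-100178531 R. With 1 array left out, the difference ran from -2.54 to -1.14 in chr2:174428737-174439062 R, from -1.70 to -0.54 in chr13:99890903-99892577 R and from -1.23 to -0.24 in chr6:100162756-100178531 R. Of these 10 named probes 8 lay in the last 24 rows of spots, which held 6.90% of the interval probes; the part of the position on the slide in these values was not tested.

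Some probes were above background in only 1 of the treatment groups. On both Cdh1 arrays and neither control array there were 10 interval probes (background 0.132% of all probes), and the reverse held for 25 (background 0.316%). Here a fold is a lower bound: the bright group's mean signal is set against the lowest signal that counted as above background on each dim array, or against what the probe itself read there if that was more. The largest bounds with Cdh1 were at least 2.35-fold for chr9:75257934-75263344 F, at least 1.96-fold for chr2:143988645-143993945 R and at least 1.84-fold for chr5:22926562-22927468 R. In the other direction they were at least 3.76-fold for chr14:105987405-106063477 R, at least 3.19-fold for chrX:18734106-18744367 R and at least 2.77-fold for chr11:95359115-95369547 R. These bounds are of group means, and most measured differences were uneven between the sets. In set 1 and set 2 the rises were 0.35 and 2.75 on chromosome 9, 0.15 and 3.18 on chromosome 2, and 1.68 and 1.46 on chromosome 5. The falls were -1.98 and -4.27 on chromosome 14, -3.04 and -2.59 on X, and -0.74 and -2.29 on chromosome 11. None of these 6 passed the test (adjusted p = 1.0). The probes of chr14:105987405-106063477 R and chrX:18734106-18744367 R lay in rows 383 and 381, within the last 24 rows of spots. That of chr11:95359115-95369547 R lay in row 325. The last 24 rows held 3 of the 25 probes above background on the control arrays alone, and 0 of the 10 on the Cdh1 arrays alone. The part of that position in the bounds was not tested.

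Many interval probes differed between the sets. Between set 2 and set 1, 232 of 2350 tested interval probes (9.87%) passed limma's adjusted p of 0.05, beside a background of 15.5% of 32958 probes, 17.9% of mRNA probes and 16.2% of RefSeq non-coding probes. Higher in set 2 were 100 interval probes (4.26%; background 6.83%) and lower were 132 (5.62%; background 8.64%). They belonged to 227 stranded intervals in 204 loci, and 196 of them were detected on all 4 arrays. The measured difference was at least 2-fold in 40 (17.2% of those called, beside 19.8% of called mRNA probes), with 15 rises and 25 falls. For 21 of the 232 no array of the dimmer set was above background. These 21 entered the test through the brighter set alone, and their p rests on background readings of the dimmer set. With these taken at their lower bound 31 were at least 2-fold apart, 12 higher and 19 lower in set 2. The count rests on all 4 arrays: it fell to 0 without any of control set 1, Cdh1 set 1 or Cdh1 set 2, and to 28 without control set 2. Set may hold culture and whatever else differed between the sets, and these cannot be told apart.

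The lower share among intervals than among mRNA probes was present at every level of signal. From the dimmest to the brightest quartile of all tested probes, 10.5%, 8.91%, 11% and 8.11% of interval probes were called, against 19%, 20.2%, 19.1% and 14.6% of mRNA probes. For RefSeq non-coding probes the shares were 13.5%, 19.9%, 21.2% and 8.33%, so in the brightest quartile theirs was close to that of intervals. Over probes detected on all 4 arrays, the SD of the set difference was 0.33 for intervals and 0.38 for mRNA probes. The set difference of the control arrays and that of the Cdh1 arrays had a Pearson r of 0.52 over interval probes and 0.81 over mRNA probes. Over RefSeq non-coding probes r was 0.68. No test was made of these shares or of the r, since probes of overlapping intervals are not independent. By strand, 37 F probes were higher and 75 lower in set 2, and 63 R probes were higher and 57 lower.

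**Figure D4:**
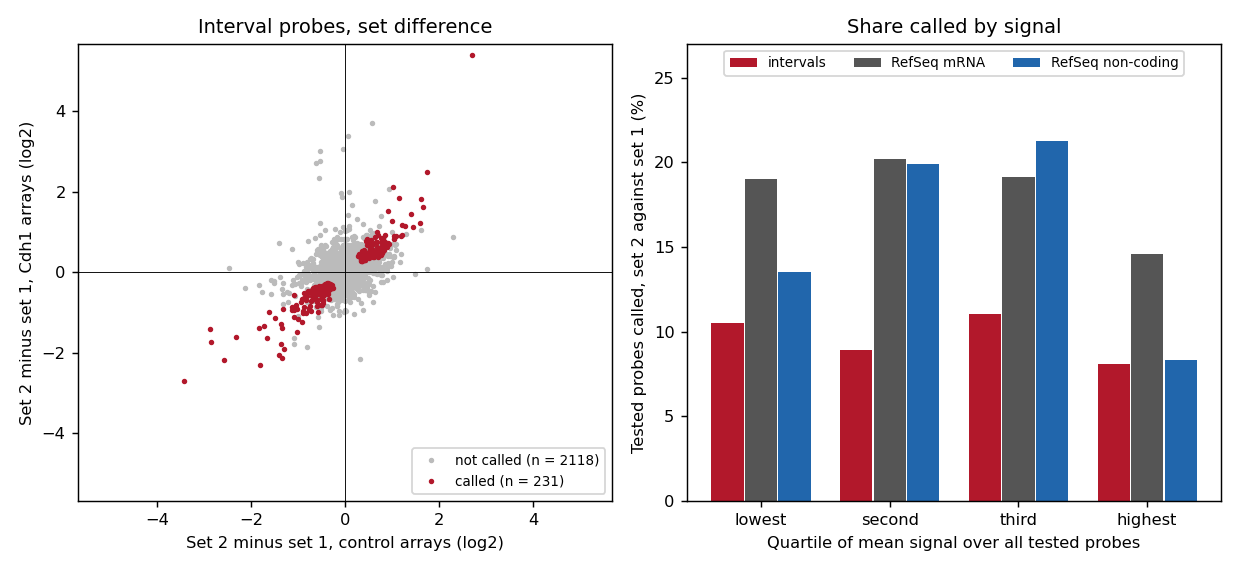
Left, set 2 minus set 1 (log2) on the Cdh1 arrays against the same on the control arrays for tested interval probes with a value on every array, 1 point per probe, called ones in red (231, the other called probe lacking a value on 1 array). Right, share of tested probes called (%) in each quartile of mean signal for 3 probe classes; the interval bars, from 8.11% to 11%, are lower than the mRNA bars in all quartiles.

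The named calls between the sets were not equally firm. With treatment as a block 12 of the 20 kept an adjusted p under 0.05 and 8 did not: chr12:16003706-16022581 R (0.084), chr14:65720392-65769859 R (0.089), chr13:53100475-53113850 R (0.060), chr6:39248007-39248490 R (0.065), chr18:82934418-82935002 F (0.062), chr13:21264306-21264482 R (0.085), chr6:3333825-3349525 F (0.059) and chr10:72726649-72799726 R (0.0504). Without control set 2, 8 of the 20 kept their call, and without any of the other arrays 0 did.

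Among intervals higher in set 2, an R probe of chr12:16003706-16022581 had the largest bound. It read -6.74 and -8.11 on the control and Cdh1 arrays of set 1 and -4.05 and -2.70 on those of set 2. It was above background in set 2 alone (at least 5.58-fold). Its limma adjusted p of 0.039 rests on background readings in set 1, so it adds nothing to the bound. Other probes of that interval did not share the rise. A second R probe, above background on 1 array, gave set differences of -0.53 (control) and -0.51 (Cdh1). The F probe, detected on all 4, differed by 0.11 (adjusted p = 0.54). A better measured case was chr11:112898724-113062945, a 164222 bp interval with 4 probes, all detected on all 4 arrays. Its first R probe read -3.36 and -3.46 in set 1 and -1.75 and -1.63 in set 2, a difference of 1.72 ± 0.08 (SE; adjusted p = 0.0067). A second R probe rose by 1.42 ± 0.09 (adjusted p = 0.0088) and the F probe by 0.72 ± 0.09 (adjusted p = 0.022), while the third R probe differed by -0.02 ± 0.05 (adjusted p = 0.78). Probes of this interval thus rose on both strands, with 1 probe that did not pass.

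The brightest of the named rises was chr5:152006587-152008784 R, at -0.37 and 0.13 in set 1 and 1.21 and 1.36 in set 2, with a difference of 1.41 ± 0.19 (SE; adjusted p = 0.028). The sets did not overlap. In chr1:137482591-137625604 R the values were -3.20 and -2.92 in set 1 and -1.54 and -1.28 in set 2 (difference 1.64, adjusted p = 0.015). The F probe of that interval, detected on all 4 arrays, differed by 0.19 (adjusted p = 0.38). In chr1:94608820-94634671 R the difference was 1.29 (adjusted p = 0.031), but the R probe of chr1:94611439-94613779 inside it gave -0.37 (adjusted p = 0.059). A dimmer rise of 1.5 was that of chr13:53100475-53113850 R. The F probe of the overlapping chr13:53097579-53113554 gave -0.26 (adjusted p = 0.088). Above background in set 2 alone, and therefore known only by a bound, were chr13:95613081-95640256 R (at least 2.29-fold higher), chr6:39248007-39248490 R (at least 1.61-fold) and chr14:65720392-65769859 R (at least 1.36-fold). Other R probes of the chromosome 14 interval, detected on all 4 arrays, differed by 0.14 and -0.41 (adjusted p = 0.47 and 0.27). A further one, above background on 3 arrays, differed by 0.79 (adjusted p = 0.18). The R probes of chr6:39205913-39248468, which overlaps the chromosome 6 interval, differed by -0.15 and 0.28 and did not pass. The F probe of chr13:95613081-95640256, detected on all 4 arrays, differed by 0.04 (adjusted p = 0.68). The 10 probes chosen as the largest rises were R probes, while 37 of all 100 called rises were F probes.

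Among intervals lower in set 2, chrX:155945151-155945654 R read -4.74 and -4.26 in set 1 and -8.16 and -6.97 in set 2. It was not above background in set 2, so that only a bound can be given, at least 2.49-fold lower. Its limma adjusted p of 0.033 rests on background readings in set 2 and adds nothing to the bound. A larger fall was measured with detection on all 4 arrays. In chr7:111526943-111545093 the R probe read -2.80 and -2.76 in set 1 and -5.37 and -4.93 in set 2, a difference of -2.37 ± 0.17 (SE; adjusted p = 0.011). Its F probes, both detected on all 4 arrays, differed by 0.16 and -0.19 and did not pass (adjusted p = 0.12 and 0.16). In chr10:118427606-118430070 R the values were -3.18 and -3.09 in set 1 and -4.86 and -4.72 in set 2, a difference of -1.65 ± 0.08 (adjusted p = 0.0068). Here the F probe of the wider interval chr10:118385588-118439338 differed by 0.08 (adjusted p = 0.70).

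Some falls were shared by a second probe of the same or an overlapping interval. The F probe of chr10:83185606-83225506 read -1.31 and -1.64 in set 1 and -3.14 and -3.03 in set 2 (difference -1.61 ± 0.14, adjusted p = 0.014), and the F probe of the overlapping chr10:83181374-83249774 fell by 1.33 (adjusted p = 0.012). The R probes of that locus differed by 0.34 and 0.31 and did not pass. In chr6:3333825-3349525 the F probe, above background on 1 of the set 2 arrays, fell by 1.74 (adjusted p = 0.025) and the R probe by 1.01 (adjusted p = 0.016). Another fall, in chr10:72726649-72799726 R, gave a difference of -1.72, again with 1 of the set 2 arrays above background. This fall was not shared by the F probe of that interval detected on all 4 arrays, which differed by -0.12 (adjusted p = 0.21). The interval chr18:82934418-82935002 F, above background in set 1 alone, was at least 1.24-fold lower in set 2. Of the 20 named probes 4 lay in the last 24 rows: chr12:16003706-16022581 R, chr13:53100475-53113850 R, chrX:155945151-155945654 R and chr3:95454378-95454600 F. The part of that position was not tested.

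Detection in 1 set alone was also compared. On both set 2 arrays and neither set 1 array there were 17 interval probes (background 0.461%), and on both set 1 arrays and neither set 2 array there were 37 (background 0.671%). Besides the rises on chromosomes 12 and 13 given above, the largest bound in set 2 was at least 1.99-fold for chr6:117528735-117562588 R, which did not pass (adjusted p = 0.17). The other named falls were detected in set 1 alone, with the largest bounds. They were at least 3.91-fold for chr13:21264306-21264482 R, at least 3.31-fold for chr3:95454378-95454600 F and at least 2.84-fold for chr16:84708695-84708806 F. Their limma adjusted p of 0.041, 0.022 and 0.013 rest on background readings in set 2, so they add nothing to the bounds.

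Where an interval had several probes, set differences were shared within a strand more than across strands. The set differences of same-strand probes had a Pearson r of 0.47 over the 156 pairs and the same sign in 69.9%. Over the 347 opposite-strand pairs r was 0.18, with the same sign in 59.1%. In the Cdh1 comparison the r values were 0.25 and -0.07. Of 24 same-strand pairs with 1 or both probes called between the sets, only 5 had both called. Across strands it was 8 of 53 pairs, so in most of these pairs only 1 probe was called. Of the 232 called probes, 193 were the only probe of their stranded interval. At least 2 probes were called in 5 stranded intervals, always in the same direction: chr10:81816994-81863610 F (0.70 and 0.82), chr11:112898724-113062945 R, chr12:111829967-111830904 F (-0.85 and -0.54), chr15:66682293-66722977 R (-0.79 and -0.72) and chr8:126268510-126290810 F (-0.50 and -0.39). Both strands were called in 6 intervals, which moved the same way in all but chr14:115423660-115463160 (F by -0.32, R by 0.47).

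Well-known long non-coding RNAs with a RefSeq entry served as a background list of 40 genes. Of these 30 had a probe, and 21 were well above background on all 4 arrays. Bright among them were Norad, which binds Pumilio proteins (mean signal 5.42), the snoRNA host genes Snhg6 (4.96) and Snhg8 (4.88), and Kcnq1ot1, the antisense RNA of an imprinted domain (2.45). The imprinted genes H19 and Meg3 were above background on no array. With Cdh1, 0 of 21 tested passed and the median difference was 0.02, beside 0.00 over all tested probes. Between the sets 3 of 22 passed, a share close to the background of 15.5%: Snhg5 (0.36 ± 0.07, adjusted p = 0.045) and Jpx, an activator of Xist (0.47, adjusted p = 0.032), were higher in set 2, and Mir22hg, the host gene of a microRNA, was lower (-0.81 ± 0.10, adjusted p = 0.024). The list's median set difference was 0.05, against -0.04 over the tested interval probes.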

How the data were processed

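Per the file headers, the authors read 4 Agilent 1-colour arrays (B16-F10, 2 control and 2 Cdh1) with Feature Extraction 12.0.3.1, whose design uses mm9. The deposited scanner files give each spot's processed intensity, which is corrected for background within the array, its median intensity and that of its local background, and quality marks. The deposited table held the same processed intensity times 1 factor per array (0.873 to 0.930).

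For this work the log2 processed intensity was taken relative to each array's 75th percentile. Control spots and outlier-marked spots were left out, which left 1 interval probe without a value on 1 or more arrays, and spots of a probe were averaged. A probe was taken as well above background where over 0.5 of its spots were. To be tested, a probe had to be so on both arrays of at least 1 compared group. Tests used limma 3.58.1 (lmFit, eBayes; R 4.3.3), with Benjamini-Hochberg adjustment over all tested probes and a threshold of 0.05, without a block. The code was tested on simulated data. Chromosome names of mRNA probes came from RefSeq's gene table (GRCm38.p6). Nearest genes were not analysed here.

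The titles name the sets by number, but do not say which steps the arrays of a set shared. Deviations of arrays with the same number had a Pearson r of 0.74 over 31155 probes. Alternatives were the authors' table, median centring, quantile normalization alone or after normexp background correction, other filters, arrays left out, the last 24 rows of spots left out, interval means, blocks and another prior. Normexp used the median intensity, since the files hold no mean intensity. The intervals described singly were those with the highest signals, the largest differences in each comparison, detection in 1 group alone, the largest strand distances and the most detected probes. Members and lists were chosen with earlier results of these data known.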

Additional observations from a re-analysis of the deposited data

Results flagged for a closer look

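The median Cdh1 difference over interval probes detected on all 4 arrays was -0.0105 in set 1 and 0.0397 in set 2 (log2), so the sets moved in opposite directions. This difference between the sets was not tested, and both medians are small beside the spread between probes (SD 0.27 in each set).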

How the results depend on the processing

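No interval probe passed in the Cdh1 comparison under any alternative run, and an unadjusted p under 0.05 gave 70. With the replicate block of the set number, 0 of 2330 passed; the block changed no call. The 232 set calls became 378 with normexp and quantile normalization, 470 with a trend and robust prior, 124 with at least 1.5-fold in addition, 97 with treatment as a block and 0 without the filter on dim probes; leaving out 1 array gave 0 to 28. The split of 100 higher and 132 lower became 123 and 116 with median centring and 113 and 102 in the authors' table. The median signal difference from mRNA probes of -2.98 was -2.25 with normexp, -2.94 without the filter, -0.55 against RefSeq non-coding probes and between -3.03 and -2.96 when any 1 array was dropped. The count at least 2-fold in both sets, 1 in the report, was 0 with normexp, 0 without the last 24 rows, 46 without the filter and 7 at 1.5-fold. Of 265 values of named probes in the set comparison, 163 kept direction and side of the threshold and 102 kept direction only; all 132 in the Cdh1 comparison kept both, and 23 combinations gave no value. The causes were not tested. The 2 arrays in a group and the dim signal of most intervals limit what could be called.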

Other observations

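Set differences were unevenly spread over the chromosomes. On chromosome 8, 19 of 142 tested interval probes were called, 18 of them lower in set 2 and 1 higher, whereas over all chromosomes 100 were higher and 132 lower. The 18 lower probes lay in 11 loci and fell by 0.30 to 0.83 on the log2 scale. Several sat together: the F probe of chr8:72663591-72671154 (-0.32), both strands of chr8:72663625-72673010 (-0.52 for F, -0.62 for R) and the F probe of chr8:72671462-72672533 (-0.50) overlap or adjoin, and 4 called intervals lay between chr8:122843176-122844282 F (-0.42) and chr8:122947917-122948153 F (-0.59). Over all 142 tested interval probes of chromosome 8 the median difference was -0.06 and 57.0% were below 0, which is within the range of the other chromosomes (on chromosome 16, -0.08 and 69.0%). The single rise was chr8:26343277-26352902 F (0.57). These probes share loci and arrays, the chromosome was picked after the values were seen, and no test was made.

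Probes for RefSeq mRNAs, placed by gene on 20 chromosomes through the RefSeq table, gave the widest departures on the same chromosome and on 2 others. On chromosome 8, 44 of 1012 tested mRNA probes were higher and 199 lower in set 2, with a median difference of -0.15, which was -0.13 on the control arrays and -0.16 on the Cdh1 arrays. On chromosome 9, 54 were higher and 215 lower (median -0.13), and on chromosome 6, 174 were higher and 83 lower (median 0.12). Interval probes gave 3 higher and 6 lower on chromosome 9 and 11 higher and 8 lower on chromosome 6. The median over all tested mRNA probes was -0.01. What the sets differ in is not given in the sources used here.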
